A study of Mus musculus with 9 samples.

Results

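Immediate early transcription factors are the first transcription factor genes that a cell switches on after a growth factor, stress or mechanical stimulus. The set described here holds 10 of them, Fos, Fosb, Fosl1, Fosl2, Jun, Junb, Jund, Egr1, Atf3 and Ier2, taken by gene symbol from the 55414 genes of the deposited tables, and each symbol had 1 entry. It was measured in 9 RNA sequencing libraries made from cells lifted from the lung alveoli of mice by laser capture microdissection, a technique that cuts cells picked by eye from a slice of tissue. By the labels the bulk of these cells are fibroblasts, which make the connective tissue matrix. There were 3 groups of 3 libraries, and the comparisons ask how lungs of old mice differ from those of young mice and how treatment of old mice with PDK4-IN alters them.

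All mice were wild type on the C57BL/6J background and male by the labels, whereas the study's methods say that its ageing work used mice of both sexes. The Young group came from young mice, whose age and any vehicle dosing the labels do not give. The Aged group came from mice that aged naturally to 20 months and then received vehicle. The PDK4-IN group came from mice of the same age given PDK4-IN, an inhibitor built on anthraquinone, whose target is pyruvate dehydrogenase kinase 4 (PDK4), the enzyme that holds back entry of pyruvate into the mitochondrial citric acid cycle. Dosing was once every 2 weeks for 4 months, and these mice were examined at 24 months. Captured cells were combined before lysis, and the labels do not say that the replicates are separate animals, so the p-values measure only the spread between libraries, which may be technical. The deposited sheets carry names with bleomycin and PCC1, another compound of the study, whereas their column names give these 3 groups, and the groups were read from the column names alone.

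FOS proteins pair with JUN proteins through a leucine zipper to form AP-1, a dimer that binds DNA at a short palindromic element and drives genes of proliferation, matrix turnover and inflammation. JUN proteins can also pair with each other or with ATF proteins, while FOS proteins need a JUN partner. EGR1 is a zinc finger factor induced through the ERK pathway and serum response factor, ATF3 is a stress-induced bZIP factor, and IER2 is a small nuclear protein induced by the same stimuli. In lung fibroblasts, AP-1 and EGR1 are known for their part in the response to growth factors and in fibrosis. Tissue dissociation and handling can also switch these genes on.

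Library totals ran from 19456354 to 26660419 counts, and 22652 to 26193 genes had a count. Of 10 fibroblast markers, 9 reached a mean of 1 CPM in each group (a CPM value is the count of a gene scaled to a common library total), and their summed level was 9220 to 12163 CPM over the 9 libraries, with members going both ways. Of 9 tested, 2 were called higher and 6 lower in Aged than in Young, and 5 higher and 2 lower with PDK4-IN than in Aged. Markers of alveolar epithelium were mixed. For type 2 cells, Sftpc had group means of 0.0646 to 0.217 CPM, and 1 of 7 markers reached a mean of 1 CPM in each group. For type 1 cells, Ager had group means of 0.544 to 0.904 CPM, whereas 5 of 6 markers reached 1 CPM in each group. The type 1 sum was 781 to 803 CPM in Young, 650 to 655 CPM in Aged and 716 to 724 CPM with PDK4-IN. Its largest members were Cav1, at group means of 316 to 535 CPM, and Pdpn, at 233 to 379 CPM. The summed level of 15 monocyte and macrophage markers was 44.4 to 53.6 CPM in Young, 5257 to 5331 CPM in Aged and 157 to 176 CPM with PDK4-IN. Of these 15 markers, 15 were called higher in Aged than in Young and 15 were called lower in the PDK4-IN group than in Aged. The summed level of 6 neutrophil markers was 8.96 to 11.2 CPM in Young, 139 to 146 CPM in Aged and 60.5 to 77.8 CPM with PDK4-IN. Of the 4 neutrophil markers tested, 4 were called higher in Aged than in Young, and 1 higher and 2 lower with PDK4-IN than in Aged. The summed level of 7 smooth muscle and pericyte markers was 1996 to 2180 CPM in Young, 431 to 449 CPM in Aged and 438 to 485 CPM in the PDK4-IN group. Its largest members were Acta2 and Tagln, at means of 1133 and 794 CPM in Young. Of these 7 markers, 6 were called lower and 1, Rgs5, higher in Aged than in Young. With PDK4-IN, 2 were called higher and 2 lower than in Aged. In bulk RNA, fewer cells of a type and less RNA per cell cannot be told apart. Young replicate 3 stood apart from the other Young libraries in how its values followed gene length. Taken across genes, the change in a library's log2 CPM, relative to the average library, for each doubling of gene length was -0.06 in Young replicate 3 and 0.06 to 0.07 in the other Young libraries. It was 0.05 to 0.07 in Aged and -0.01, -0.10 and -0.14 in PDK4-IN replicates 1, 2 and 3. Pdk4 itself, the gene of the inhibited kinase, stood at 25.4 ± 1.74 CPM in Young, 75.4 ± 4.08 CPM in Aged and 60.2 ± 3.48 CPM with PDK4-IN (SD, n = 3).

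The 10 genes did not move as a block. Against Young, 5 of 10 rose in Aged (Fos, Fosb, Fosl1, Jun and Atf3) and 2 fell (Egr1 and Ier2), while Fosl2, Junb and Jund did not pass the test. A gene was called at an adjusted p under 0.05 in edgeR's quasi-likelihood test with Benjamini-Hochberg adjustment over all genes tested, and all 10 passed the filter on low counts. Over the 16123 genes tested, 21.4% were called higher and 19.0% lower in this comparison. The median log2 fold change was 0.18 for the 10 genes and 0.01 for all genes tested.

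Against Aged, 5 of the 10 fell in the PDK4-IN group (Fos, Fosl1, Fosl2, Jun and Atf3) and 2 rose (Jund and Ier2), while Fosb, Junb and Egr1 did not pass. Of 16275 genes tested, 25.7% were called lower and 23.9% higher. The medians were -0.19 for the 10 genes and -0.00 for all. Both comparisons use the same 3 Aged libraries, so a gene that is by chance high in those libraries is pushed in opposite directions in them. At a change of at least 2-fold, Fos and Atf3 were called higher in Aged, against 9.33% of all genes tested, and the same pair was called lower in the PDK4-IN group than in Aged, against 7.55%.

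**Figure D1:**
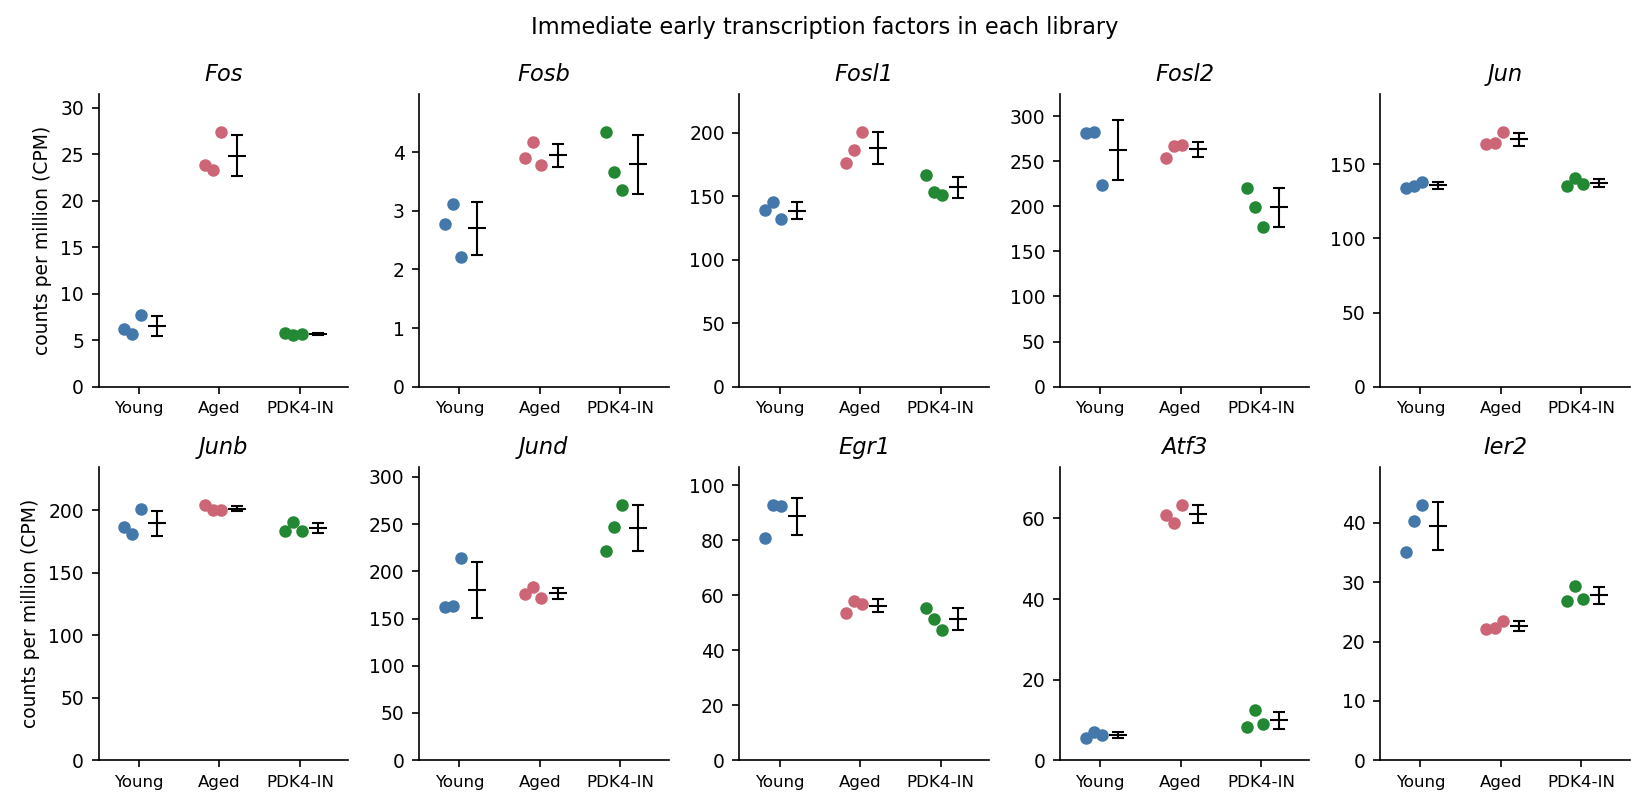
Level of each of the 10 genes in CPM (vertical axis from 0) in each library of the 3 groups, with replicates 1 to 3 from left to right as points and the mean ± SD as a black bar. The Aged libraries of Atf3 lie at 58.9 to 63.3 CPM, above every other library, whereas those of Ier2 lie at 22.1 to 23.5 CPM, below every other library.

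Since Fos, Atf3 and Jun are genes on which AP-1 and ATF factors are themselves known to act, the 100 bases before their transcription starts are shown, from RefSeq on build GRCm38.p6, the gene's own strand, 5′ to 3′. The Fos window is chr12:85473790-85473889 (plus strand), that of Atf3 chr1:191183334-191183433 (minus strand, from a RefSeq start that lies inside the longer gene model of GENCODE M21) and that of Jun chr4:95052223-95052322 (minus strand). Capitals mark the core of a cyclic AMP response element, TGACGT or its reverse complement ACGTCA, in Fos and Atf3 and the AP-1-like element TGACATCA in Jun.
Fos: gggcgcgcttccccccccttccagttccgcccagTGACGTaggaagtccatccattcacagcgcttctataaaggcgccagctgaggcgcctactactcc
Atf3: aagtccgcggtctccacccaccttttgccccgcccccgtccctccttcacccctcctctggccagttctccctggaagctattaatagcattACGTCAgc
Jun: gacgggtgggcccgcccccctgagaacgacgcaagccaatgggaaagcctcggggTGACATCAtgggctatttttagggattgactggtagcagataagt
The core begins 66 bases before the start in Fos and 8 bases before it in Atf3, and the AP-1-like element 45 bases before it in Jun.

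RefSeq windows of 250 bases before the start were searched for 7 of the 10 genes. Fosl1, Egr1 and Ier2 were not searched and are not described at the sequence level. Sites farther from the start than 250 bases were not searched, so a count of 0 covers these windows alone. TGACGT, on either strand, was in 2 of 7 (Fos and Atf3) and in 6.47% of all 32851 windows. TGACATCA, on either strand, was in 1 of 7 (Jun) and in 2.93% of windows. The AP-1 site TGACTCA was in 0 of 7 against 4.46% of windows, the full response element TGACGTCA, which contains TGACGT, in 0 of 7 against 1.55%, and the CArG box bound by serum response factor in 0 of 7 against 1.47%, each on either strand. TATAAA on the gene's strand lay 33 bases before the start of Fos, and was in 1 of 7 windows against 7.59% of all. The GC box GGGCGG was in 5 of 7 against 32.7% and CCAAT in 2 of 7 against 33.8%, on either strand. These are matches of letters and were not tested as binding sites.

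Fos, the founding member of its family, was high in the Aged libraries alone. It stood at 6.16, 5.66 and 7.76 CPM in Young replicates 1 to 3, at 23.9, 23.3 and 27.4 CPM in Aged, and at 5.73, 5.58 and 5.63 CPM with PDK4-IN. The Aged libraries were all above the other 6, and the PDK4-IN libraries lay within or just below the Young range. Mean CPM was 3.81-fold higher in Aged than in Young (log2 fold change 1.92, SE 0.12, adjusted p = 5.5e-07). It was 4.403-fold lower in the PDK4-IN group than in Aged (-2.13, SE 0.10, adjusted p = 2.0e-08). These values rest on 542 to 637 counts per Aged library and 111 to 151 counts in each of the others.

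Fosb, a close relative of Fos with the same rapid induction, was the scarcest of the set, with 43 to 104 counts per library. It stood at 2.78, 3.11 and 2.21 CPM in Young, at 3.90, 4.17 and 3.78 CPM in Aged, and at 4.35, 3.67 and 3.36 CPM with PDK4-IN. All Young libraries were below all others, while Aged and PDK4-IN libraries were mixed. The rise in Aged was near the threshold (log2 fold change 0.53, SE 0.19, adjusted p = 0.0438). The call was lost in 8 of 14 alternatives, among them DESeq2 (adjusted p = 0.0699) and leaving out Young replicate 1 (0.0763), Young replicate 3 (0.117), Aged replicate 1 (0.0998), Aged replicate 2 (0.127) or Aged replicate 3 (0.0848). The range over all alternatives was 0.0308 to 0.127. The PDK4-IN group did not differ detectably from Aged (-0.05, SE 0.17, adjusted p = 0.816).

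Fosl1, which encodes FRA1, a FOS protein without a strong activation domain that is known from fibroblasts and invasive cells, stood at 139, 145 and 132 CPM in Young. It stood at 177, 187 and 201 CPM in Aged and at 167, 153 and 151 CPM with PDK4-IN. The groups did not overlap, and the PDK4-IN libraries lay between Young and Aged. The rise in Aged was 1.36-fold (log2 fold change 0.43, SE 0.06, adjusted p = 4.1e-04), and the fall with PDK4-IN was -0.25 (SE 0.06, adjusted p = 0.00470). Fosl1 overlaps Ccdc85b, a gene on the opposite strand, in GENCODE M21, and its counts carried fractions in all 9 libraries, so reads may have been divided. Ccdc85b itself stood at 114 ± 20.1, 113 ± 5.14 and 139.6 ± 14.8 CPM in Young, Aged and the PDK4-IN group (SD, n = 3), highest in the group where Fosl1 fell.

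Fosl2, which encodes FRA2, a FOS protein linked to fibrosis in mouse models, stood at 281, 283 and 224 CPM in Young, at 254, 267 and 268 CPM in Aged, and at 219.9, 199 and 177 CPM with PDK4-IN. The PDK4-IN libraries were below all others, and Young replicate 3 was far below its group. Aged and Young did not differ detectably with all libraries (log2 fold change -0.01, SE 0.08, adjusted p = 0.935), and without Young replicate 3 Fosl2 was called lower in Aged (-0.12, adjusted p = 0.00408). With PDK4-IN it fell by 0.40 on the log2 scale against Aged (SE 0.07, adjusted p = 5.4e-04). Fosl2 is the longest of the 10 genes at 6537 bases, and the fall was -0.22 (adjusted p = 5.97e-04) once each library's trend on gene length was removed, an alternative chosen after seeing the data.

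Jun, which encodes the founding JUN protein, a target of the JNK kinases, stood at 134, 135 and 138 CPM in Young. It stood at 164, 164 and 172 CPM in Aged and at 135, 140.4 and 136 CPM with PDK4-IN. Each Aged library was above all the others, and Young and PDK4-IN libraries overlapped. The rise in Aged was 1.23-fold (log2 fold change 0.28, SE 0.05, adjusted p = 0.00143) and the change with PDK4-IN was a fall (-0.27, SE 0.05, adjusted p = 9.8e-04). Junos, an antisense gene that overlaps Jun, moved in the same directions at 1.94 ± 0.671, 3.35 ± 0.274 and 2.13 ± 0.371 CPM (SD, n = 3), and whether the counts kept the strands apart is unclear, since the study's methods describe stranded libraries in a section on human cells and the labels of these samples name another kit.

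Junb, which often restrains the activity of Jun, varied little. It stood at 186, 181 and 201 CPM in Young, at 204, 199.97 and 200.1 CPM in Aged, and at 184, 190.4 and 183 CPM with PDK4-IN. The Aged libraries lay above the PDK4-IN libraries, and Young replicate 3 lay within the Aged range. Neither difference passed (Aged against Young 0.08, SE 0.05, adjusted p = 0.298, and PDK4-IN against Aged -0.11, SE 0.05, adjusted p = 0.0699). The first was called higher without Young replicate 3 (0.12, adjusted p = 0.00560). The second was called lower with library totals alone (-0.12, adjusted p = 0.0464), with at least 10 counts in every library (-0.13, adjusted p = 0.0362) and with the gene-length trend removed (-0.19, adjusted p = 9.13e-04). Prdx2, a gene on the opposite strand that overlaps Junb, stood at 331 ± 33.2, 325 ± 5.87 and 403 ± 34.8 CPM (SD, n = 3).

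Jund, the JUN gene that is expressed most steadily in resting cells, was the only one of the FOS and JUN genes called higher with PDK4-IN. It stood at 162, 163 and 214 CPM in Young, at 176, 183 and 171 CPM in Aged, and at 221, 246 and 269.97 CPM with PDK4-IN. The PDK4-IN libraries were above all others, and Young replicate 3 was the nearest to them. The rise against Aged was 1.39-fold (log2 fold change 0.49, SE 0.07, adjusted p = 2.6e-04), and 0.39 (adjusted p = 5.39e-05) with the gene-length trend removed. Between Aged and Young there was no detectable difference with all libraries (-0.04, SE 0.10, adjusted p = 0.788), and without Young replicate 3 the sign turned and Jund was called higher in Aged (0.10, adjusted p = 0.0232). At 1667 bases Jund is the second shortest of the 10 genes.

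Egr1, the zinc finger factor of the set, was high in Young and low in both groups of old mice. It stood at 80.9, 92.6 and 92.2 CPM in Young, at 53.5, 58.0 and 56.8 CPM in Aged, and at 55.3, 51.1 and 47.3 CPM with PDK4-IN. The Young libraries were all above the other 6, and the Aged and PDK4-IN libraries overlapped. Egr1 fell by 0.67 on the log2 scale in Aged (SE 0.07, adjusted p = 2.9e-05), with a mean CPM 1.58-fold lower. The PDK4-IN group and Aged did not differ detectably (-0.12, SE 0.07, adjusted p = 0.148), though leaving out PDK4-IN replicate 1 gave a call (-0.15, adjusted p = 0.0356). The smooth muscle and pericyte marker sums given above were also high in Young alone, though their member Rgs5 was lowest there. The part of these sums in the level of Egr1 was not tested.

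Atf3, a stress-induced factor that pairs with JUN proteins and is known to restrain inflammatory genes in macrophages, had the largest difference of the 10 in both comparisons. It stood at 5.50, 7.10 and 6.27 CPM in Young, at 61.0, 58.9 and 63.3 CPM in Aged, and at 8.29, 12.4 and 8.996 CPM with PDK4-IN. The 3 groups were apart from each other, with the PDK4-IN libraries close to Young. Mean CPM was 9.70-fold higher in Aged than in Young (log2 fold change 3.26, SE 0.09, adjusted p = 6.7e-10) and 6.18-fold lower in the PDK4-IN group than in Aged (-2.62, SE 0.12, adjusted p = 1.3e-08). Aged libraries held 1306 to 1625 counts of Atf3 and the other libraries 109 to 246. The monocyte and macrophage marker sum and the neutrophil marker sum were also highest in the Aged libraries, as for Fos and Atf3. Among the neutrophil markers, S100a8 was highest with PDK4-IN instead. The part of either sum in the levels of Fos and Atf3 was not tested.

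Ier2 went the other way to Fos and Atf3. It stood at 35.1, 40.3 and 43.0 CPM in Young, at 22.1, 22.2 and 23.5 CPM in Aged, and at 26.8, 29.4 and 27.2 CPM with PDK4-IN. The groups did not overlap, and the PDK4-IN libraries lay between the others, nearer to Aged. Ier2 fell by 0.82 on the log2 scale in Aged (SE 0.09, adjusted p = 2.7e-05) and rose by 0.31 with PDK4-IN against Aged (SE 0.07, adjusted p = 0.00534). With the gene-length trend removed the latter was 0.19 (adjusted p = 0.0345), and Ier2, at 1524 bases, is the shortest of the 10 genes.

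**Figure D2:**
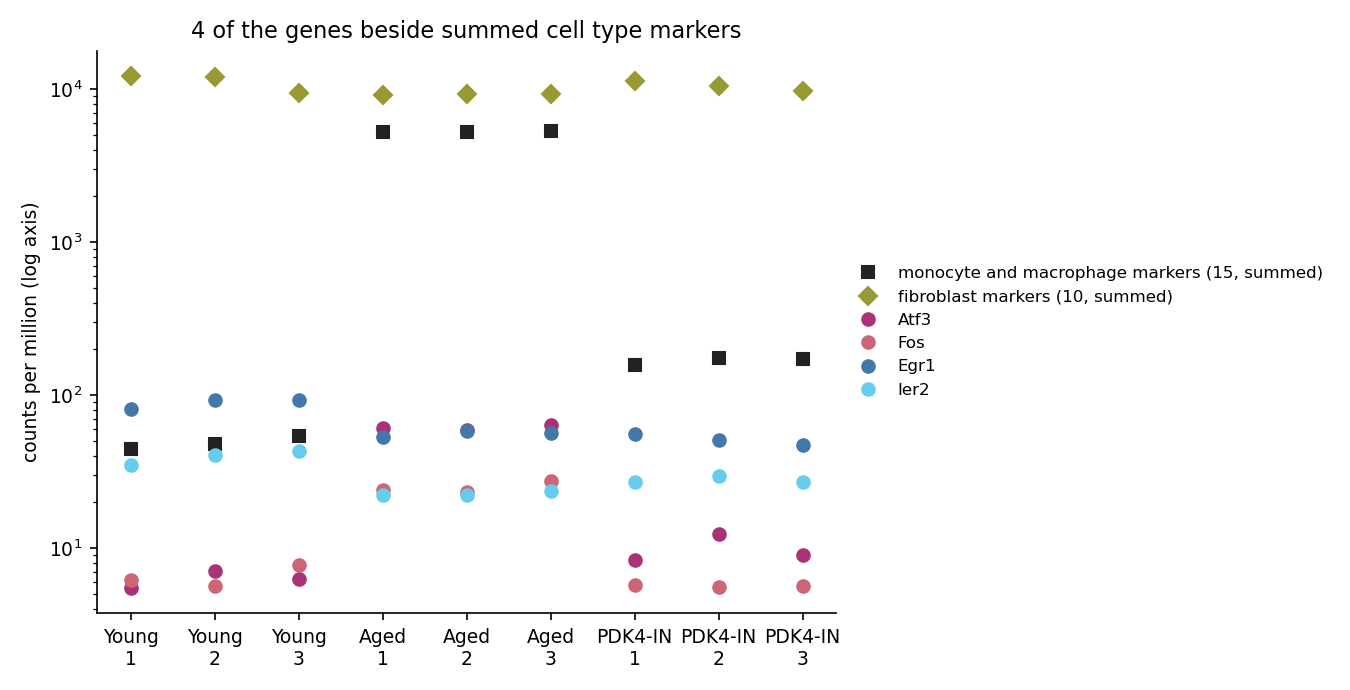
CPM on a log axis in each of the 9 libraries for Atf3, Fos, Egr1 and Ier2 (circles), for the summed 15 monocyte and macrophage markers (squares) and for the summed 10 fibroblast markers (diamonds). The macrophage sum is 5257 to 5331 CPM in the libraries where Atf3 and Fos are high, and the fibroblast sum, whose members went both ways, lies between 9220 and 12163 CPM.

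Set against Young, the PDK4-IN group had 3 of the 10 lower (Fosl2, Egr1 and Ier2) and 2 higher (Jund and Atf3), in a fit over all 9 libraries in which 15.7% of 16553 genes were called lower and 13.3% higher. Egr1 was furthest from its Young level (log2 fold change -0.82, SE 0.07, adjusted p = 9.4e-06). Ier2 (-0.54, SE 0.08, adjusted p = 6.5e-04) and Fosl2 (-0.43, SE 0.09, adjusted p = 0.00402) were lower as well. Over the 14 alternatives the log2 fold change of Fosl2 ran from -0.55 to -0.30, with an adjusted p of up to 0.0215.

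Atf3 was higher than in Young (0.62, SE 0.15, adjusted p = 0.00931), at 9.88 ± 2.17 against 6.29 ± 0.800 CPM (SD, n = 3). The call held in all 14 alternatives, with an adjusted p of up to 0.0499 and a log2 fold change down to 0.41 when 1 library was left out. Jund was higher by 0.42 (SE 0.11, adjusted p = 0.0120), a call lost without Young replicate 1 (adjusted p = 0.0624), Young replicate 2 (0.0627) or PDK4-IN replicate 3 (0.0529). Fos (-0.24, SE 0.13, adjusted p = 0.207), Jun (-0.01, SE 0.05, adjusted p = 0.854) and Fosl1 (0.15, SE 0.06, adjusted p = 0.102) did not pass. Fosb (0.45, SE 0.18, adjusted p = 0.0804) and Junb (-0.06, SE 0.05, adjusted p = 0.432) did not pass with all libraries, and both were called with the gene-length trend removed (0.51, adjusted p = 0.0438, and -0.12, adjusted p = 0.0385).

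**Figure D3:**
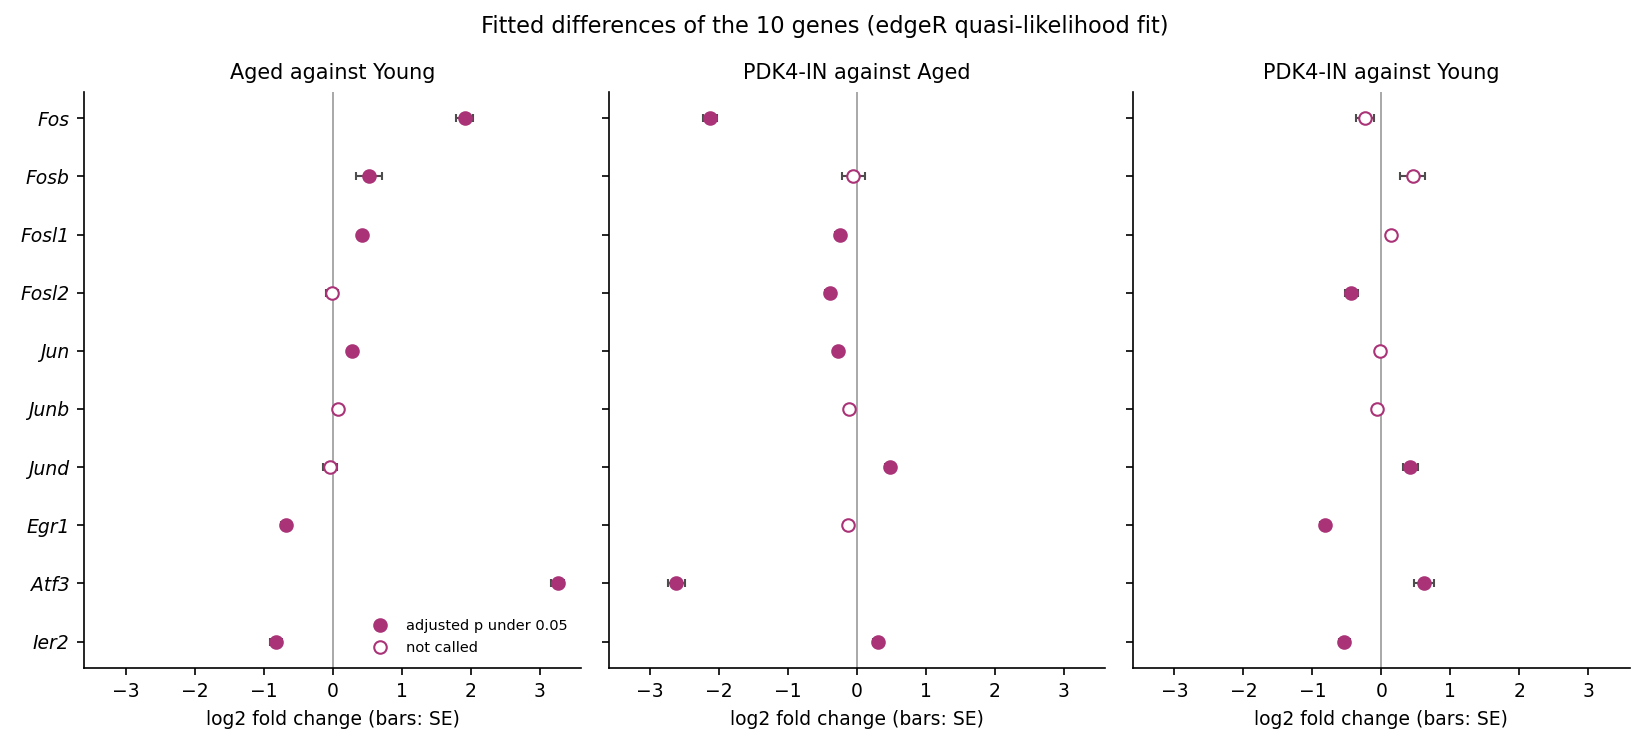
Fitted log2 fold change (horizontal axis, bars are SE) of the 10 genes in the 3 comparisons, with filled points for an adjusted p under 0.05 and open points for genes not called. Atf3 at 3.26 and Fos at 1.92 lie farthest right in Aged against Young and at -2.62 and -2.13 farthest left in PDK4-IN against Aged.

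Levels of different genes were set side by side in TPM, in which counts are scaled both by gene length and to a common total. In Young the order was Jund (180.4 ± 18.5 TPM), Junb (173 ± 3.07), Fosl1 (133 ± 17.0), Jun (65.7 ± 2.92), Fosl2 (59.7 ± 11.4), Ier2 (44.2 ± 3.02), Egr1 (40.6 ± 2.89), Fos (6.04 ± 0.789), Atf3 (5.98 ± 2.13) and Fosb (1.33 ± 0.436; SD, n = 3). Libraries of neighbours overlapped for Jund and Junb, Jun and Fosl2, Fosl2 and Ier2, Ier2 and Egr1, and Fos and Atf3, and were apart elsewhere.

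In Aged, Junb (185 ± 2.63 TPM), Fosl1 (180.1 ± 15.5) and Jund (179 ± 6.83) led with overlapping libraries, and Jun (81.1 ± 1.59) and Fosl2 (59.9 ± 1.69) followed. Atf3 (51.8 ± 3.71 TPM) then stood above Egr1 (25.6 ± 1.20) and Ier2 (25.5 ± 0.743), which overlapped, and Fos (19.6 ± 1.70) and Fosb (1.87 ± 0.330) were last. In the PDK4-IN group Jund (225 ± 10.6 TPM) was apart from Junb (155 ± 8.25) and Fosl1 (135 ± 16.1), which overlapped. Below them each neighbour was apart from the next in the order Jun (60.5 ± 2.87 TPM), Fosl2 (40.8 ± 6.41), Ier2 (28.4 ± 1.71), Egr1 (21.9 ± 2.41), Atf3 (8.34 ± 2.70), Fos (4.84 ± 0.595) and Fosb (1.46 ± 0.231).

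Among the 7 FOS and JUN genes, Fosl1, Junb and Jund thus made up most of the transcripts in each group, and the 3.81-fold rise of Fos moved a small part of the pool. Summed FOS family TPM was 200.4 ± 28.2 in Young, 261 ± 17.8 in Aged and 182 ± 22.1 with PDK4-IN (SD, n = 3). Summed JUN family TPM was 419 ± 14.2, 446 ± 6.57 and 441 ± 1.35. The FOS share of the FOS and JUN sum was 34.2, 34.8 and 27.8% in Young, 35.3, 36.6 and 38.9% in Aged, and 32.0, 28.5 and 27.1% with PDK4-IN.

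The share was thus higher in every Aged library than in any other, with Young replicate 3 close to the PDK4-IN libraries. An exact two-sided permutation test gave p = 0.1 for Aged against Young, p = 0.1 for PDK4-IN against Aged and p = 0.3 for PDK4-IN against Young, where 0.1 is the smallest p that 3 against 3 libraries allow. Fos made up 3.09 ± 0.821% of FOS family TPM in Young, 7.50 ± 0.379% in Aged and 2.70 ± 0.634% with PDK4-IN. Jund made up 43.0 ± 2.92%, 40.2 ± 0.966% and 51.1 ± 2.47% of JUN family TPM, and Junb 41.3 ± 1.76%, 41.6 ± 0.583% and 35.2 ± 1.83%. Young replicate 3 and the PDK4-IN libraries, whose trend on gene length was negative, had the lowest FOS shares and the highest Jund shares. The part of that trend in these shares was not tested.

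**Figure D4:**
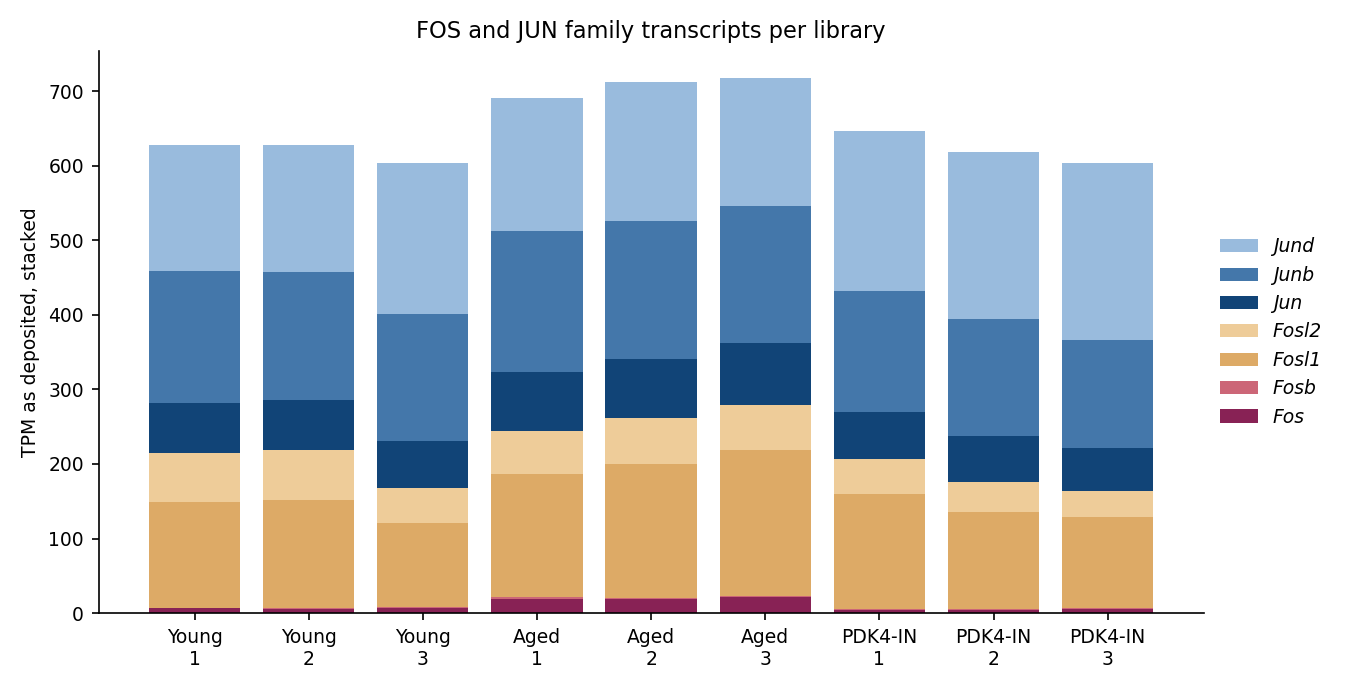
Deposited TPM of the 4 FOS family and 3 JUN family genes stacked from 0 in each library of the 3 groups. Fosl1, Junb and Jund fill most of each bar, and the Fos layer at the base is thickest in Aged, at 18.4 to 21.6 TPM.

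To place 4 of the genes among all others, each profile over the 9 libraries was centred on its own mean (log2 of CPM plus 0.5) and the root mean square distance was taken to each of the 11397 genes with a mean of at least 5 CPM. Nearest to Fos were Dock8 (0.168), Trpv2 (0.174) and Irf5 (0.178), and Irf5, an interferon regulatory factor, went from 6.00 ± 0.539 CPM in Young to 28.1 ± 0.502 in Aged and 6.72 ± 0.297 with PDK4-IN (SD, n = 3). Nearest to Atf3 were Cd68 (0.156), which is 1 of the 15 monocyte and macrophage markers, Syk (0.198), a kinase of immune receptor signalling, and Fabp5 (0.207), a fatty acid binding protein.

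Nearest to Jun were Nup62 (0.0313), a nuclear pore protein, Tes (0.0334) and Capza2 (0.0428), and nearest to Egr1 were Rhoj (0.0856), Rai14 (0.0926) and Chil1 (0.0945). Within the set, Fos and Atf3 were each nearest to the other (0.583), as were Egr1 and Ier2 (0.193), and Jun was nearest to Junb (0.0951). Fos and Atf3 were thus each nearer to several genes outside the set than to each other. Fosb was below 5 CPM and was not placed.

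The counts called in the lists below stand beside shares of 21.4% higher and 19.0% lower over all genes tested in Aged against Young. With PDK4-IN against Aged these shares were 23.9% higher and 25.7% lower, and a count near them is no finding about a list. The monocyte and macrophage marker sum was far higher in Aged than in either other group, and its part in the counts below was not tested. Other immediate early transcription factors, from a list outside the 10, went both ways. Of 17 tested, 2 rose and 5 fell in Aged against Young with a median log2 fold change of -0.10, and of 16 tested 5 rose and 7 fell with PDK4-IN against Aged with a median of -0.16. Egr2, a relative of Egr1, followed the pattern of Fos, at 1.21 ± 0.361, 5.42 ± 0.562 and 1.04 ± 0.102 CPM in Young, Aged and the PDK4-IN group (SD, n = 3; 2.15, SE 0.23, adjusted p = 3.2e-05 in Aged against Young and -2.37, SE 0.20, adjusted p = 3.2e-06 with PDK4-IN against Aged). Nr4a1, an orphan nuclear receptor, was highest in Young, like Egr1 and Ier2, at 47.4 ± 1.58, 19.3 ± 1.24 and 25.2 ± 0.445 CPM (-1.31 in Aged against Young, adjusted p = 1.6e-07). Ier5l fell in Aged (-0.68, adjusted p = 3.7e-05), and Klf6, a Krüppel-like factor, rose in Aged (0.21, adjusted p = 0.00743) and fell with PDK4-IN (-0.37, adjusted p = 2.3e-04). Maff, a small MAF protein, and Klf4 rose with PDK4-IN against Aged (0.57, adjusted p = 1.4e-05, and 0.42, adjusted p = 3.6e-04).

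Of 21 other immediate early genes, which encode signalling inhibitors, matrix proteins and the like, 13 rose and 4 fell in Aged (median 0.32), and 5 rose and 11 fell with PDK4-IN (median -0.34). Socs3, a feedback inhibitor of cytokine signalling, stood at 26.3 ± 1.10, 70.5 ± 0.711 and 31.4 ± 2.01 CPM in Young, Aged and the PDK4-IN group (SD, n = 3). Errfi1, a feedback inhibitor of the EGF receptor, rose by 0.72 in Aged (adjusted p = 7.8e-07) and fell with PDK4-IN (-0.86, adjusted p = 5.8e-08). The matricellular genes Ccn1 and Ccn2 fell in Aged (-0.78, adjusted p = 1.3e-06, and -1.01, adjusted p = 3.7e-08). Ccn2 rose with PDK4-IN against Aged (0.58, adjusted p = 8.5e-07), as did Btg2, an antiproliferative gene (0.32, adjusted p = 5.1e-04).

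Other bZIP genes, possible partners of FOS, JUN and ATF3, had 6 of 10 tested higher and 1 lower in Aged (median 0.25), and 4 higher and 6 lower with PDK4-IN (median -0.39). Maf, a large MAF protein, stood at 14.6 ± 0.507, 45.2 ± 1.66 and 13.1 ± 2.19 CPM in Young, Aged and the PDK4-IN group (SD, n = 3). The small MAF gene Mafk went the other way, down in Aged (-0.18, adjusted p = 0.0248) and up with PDK4-IN (0.42, adjusted p = 7.9e-05), and Mafg also rose with PDK4-IN (0.56, adjusted p = 4.7e-04).

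Of 22 kinases and serum response factor cofactors that act upstream of these genes, 7 rose and 2 fell in Aged (median 0.11), and 4 rose and 10 fell with PDK4-IN (median -0.18). Map2k1, a kinase that activates ERK, rose in Aged (0.36, adjusted p = 1.3e-04), as did Map2k6, which activates p38 (0.51, adjusted p = 0.00159), while Map2k3 (-0.58, adjusted p = 3.2e-05) and Map2k2 (-0.39, adjusted p = 0.00231) fell. Map2k3 (0.37, adjusted p = 1.2e-04) and Map2k2 (0.40, adjusted p = 7.1e-04) rose with PDK4-IN, and the kinase Rps6ka3 fell (-0.86, adjusted p = 2.7e-05).

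Of 7 MAP kinase phosphatases, which switch these kinases off, 4 rose and 1 fell in Aged (median 0.36), and 0 rose and 4 fell with PDK4-IN (median -0.20). Dusp6, specific for ERK, stood at 53.8 ± 1.03, 91.5 ± 2.23 and 73.6 ± 5.57 CPM (SD, n = 3), Dusp16 rose in Aged (0.55, adjusted p = 4.4e-04) and fell with PDK4-IN (-0.54, adjusted p = 4.3e-04), and Dusp10 fell with PDK4-IN (-0.32, adjusted p = 7.9e-04). Dusp4 fell in Aged (-0.52, adjusted p = 3.9e-05). Of the EGR corepressors, Nab2, itself a known EGR1 target, fell in Aged as Egr1 did (-0.57, adjusted p = 1.6e-05), whereas Nab1 rose in Aged (0.32, adjusted p = 0.00328) and fell with PDK4-IN (-0.43, adjusted p = 1.6e-04).

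Of 22 known AP-1 and EGR1 target genes, 14 rose and 6 fell in Aged (median 0.50), and 4 rose and 12 fell with PDK4-IN (median -0.15). Mmp9, a gelatinase also made by macrophages and neutrophils, stood at 9.06 ± 0.564, 102 ± 2.45 and 18.7 ± 0.569 CPM in Young, Aged and the PDK4-IN group (SD, n = 3). Mmp13, a collagenase, stood at 757 ± 20.4, 1919 ± 17.4 and 1388 ± 61.1 CPM. Plau, the urokinase gene, fell with PDK4-IN against Aged (-1.66, adjusted p = 6.3e-10).

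F3, the tissue factor gene and a known EGR1 target, fell in Aged (-1.21, adjusted p = 3.5e-08) and rose with PDK4-IN (0.56, adjusted p = 9.9e-06), and Ccnd1, the cyclin D1 gene, fell in Aged (-0.62, adjusted p = 1.7e-06). Timp1, a metalloproteinase inhibitor, rose with PDK4-IN against Aged (0.50, adjusted p = 1.8e-04).

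Heat shock genes, which handling of tissue can induce, were counted beside Fos and Atf3. Of 11 tested, 2 rose and 5 fell in Aged (median -0.13), and 8 rose and 1 fell with PDK4-IN (median 0.19). Hspa1a and Hspa1b, inducible members with nearly identical sequence whose counts are therefore uncertain, rose in Aged (0.36, adjusted p = 0.0163, and 0.49, adjusted p = 1.3e-04). Hspd1 and Hspe1, mitochondrial chaperones, fell in Aged (-0.52, adjusted p = 2.6e-05, and -0.62, adjusted p = 1.1e-04). Hspe1 (0.64, adjusted p = 1.1e-04) and Hspb1 (0.54, adjusted p = 3.4e-04) rose with PDK4-IN, and Hspa1b fell (-0.24, adjusted p = 0.0129).

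**Figure D5:**
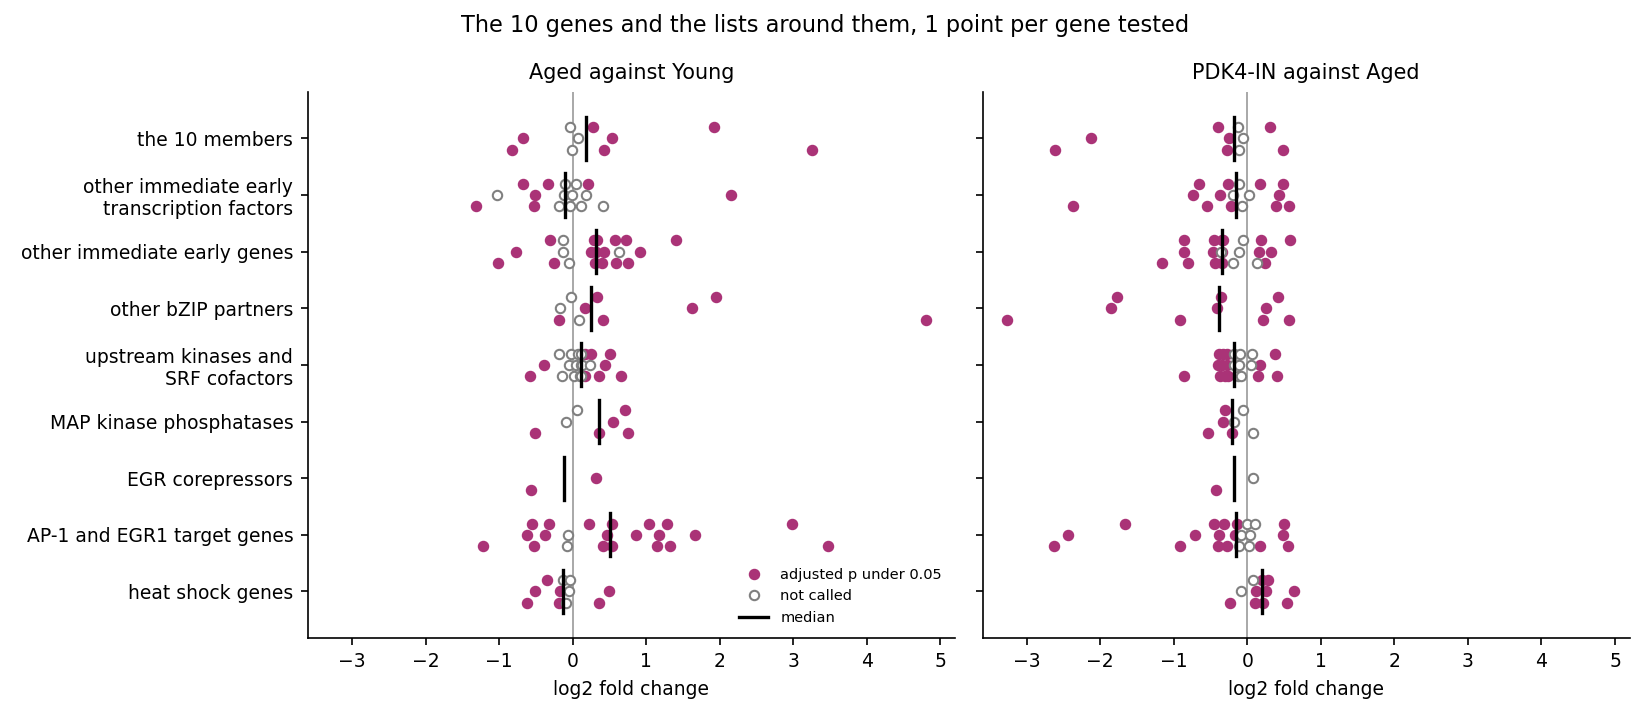
Log2 fold change of each gene tested (1 point a gene, filled where the adjusted p is under 0.05) among the 10 immediate early transcription factors and 8 lists around them, with the list's median as a black line, for Aged against Young and PDK4-IN against Aged, which share the Aged libraries. The medians in Aged against Young run from -0.13 for heat shock genes to 0.50 for AP-1 and EGR1 target genes.

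The same lists were read in the PDK4-IN group against Young, where 13.3% of all genes tested were called higher and 15.7% lower. Of the AP-1 and EGR1 target genes 8 were higher and 7 lower (median 0.10), with the stromelysin Mmp3 at 1.55 (adjusted p = 3.3e-08), Mmp13 at 0.84 (adjusted p = 1.4e-07) and F3 at -0.68 (adjusted p = 3.8e-06). Other immediate early transcription factors had 1 of 17 higher, Maff (0.51, adjusted p = 1.2e-04), and 9 lower (median -0.24), led by Nr4a1 (-0.94, adjusted p = 1.9e-06) and Srf, which encodes serum response factor (-0.67, adjusted p = 1.5e-05).

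Other immediate early genes had 3 of 21 higher and 7 lower (median 0.04), with Ppp1r15a (0.41, adjusted p = 6.7e-04) and Ier3 (0.39, adjusted p = 0.00181) up and Ccn1 (-0.56, adjusted p = 1.9e-05) and Ccn2 (-0.46, adjusted p = 1.9e-05) down. The bZIP genes had 4 of 10 higher and 0 lower (median 0.04), led by Mafg (0.95, adjusted p = 8.3e-04). The upstream kinases had 3 of 22 higher and 8 lower (median -0.12), with Mapk3, the ERK1 gene, up (0.29, adjusted p = 0.00714) and Mrtfa, a serum response factor cofactor, down (-0.35, adjusted p = 0.00178).

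The MAP kinase phosphatases had 2 of 7 higher and 2 lower (median 0.01), with Dusp6 up (0.42, adjusted p = 3.9e-04) and Dusp4 down (-0.75, adjusted p = 6.1e-06). Nab2 was lower (-0.52, adjusted p = 2.4e-05), and the heat shock genes had 2 of 11 higher and 1 lower (median -0.00). In this comparison 14 of the 15 monocyte and macrophage markers were called higher, and their part in these list counts was not tested.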

How the data were processed

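The authors sequenced total RNA of captured alveolar cells as paired reads and deposited 2 tables, Young with Aged and Aged with PDK4-IN, whose Aged columns are identical. The submitters' processing notes name Bowtie 0.12.2 and build GRCm39 (mm39). A methods section of the study that lists this series names RSEM for quantification and a strand-specific kit, but it starts from human cancer cells and gives a human reference. The labels of these mouse libraries name a different kit, and which steps of that section apply to them is unclear. The mouse annotation release is not given in the sources used here. The authors deposited expected counts, which are estimated counts per gene with fractions and no normalisation, and TPM per library. Gene length is another deposited column. The authors' own columns of fold changes, p-values and significance marks were not used, nor were group means.

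Counts were rounded to whole numbers and fitted with edgeR 4.0.16 in R 4.3.3 (filterByExpr, TMM, quasi-likelihood test, Benjamini-Hochberg adjustment). The fit was tested on simulated data. Aged against Young and PDK4-IN against Aged used their own 6 libraries, PDK4-IN against Young all 9. CPM is the count over the library total, and a floor of 3 counts is 0.113 to 0.154 CPM. Alternatives were DESeq2 1.42.0, DESeq2 size factors, library totals alone, other filters, other libraries in the fit, a replicate block, leaving out each library, and the gene-length trend removed, which was added after seeing the data. Promoter windows came from RefSeq (GRCm38.p6) and overlapping genes from GENCODE M21, an older build than the files', so windows and overlaps are a guide only.

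The 10 genes and all lists were chosen with earlier results of these data known, so no p was adjusted over a list alone. Named from each list were, per comparison, up to 2 genes each way with the lowest p among those called at a mean of at least 1 CPM in the higher group. Pdk4 and the 3 nearest profiles of Fos, Jun, Egr1 and Atf3 were also named. The overlapping genes were chosen after the values were seen, and of the nearest profiles only some are given with levels. Not every gene the rule names has its value printed.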

Additional observations from a re-analysis of the deposited data

How the results depend on the processing

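Of 420 fold changes of the 10 genes under the alternatives, 400 kept their side of the threshold and, where called, their direction, 11 lost a call, 8 gained one and 1 reversed. The reversal was Jund in Aged against Young, whose log2 fold change ran from -0.12 to 0.10 when each library was left out. In PDK4-IN against Young, leaving out each library gave 3100 to 6176 genes called against 4796 with all, and 1 to 2 of the 10 genes called higher; the count was 3100 without Young replicate 1, 3146 without Young replicate 2 and 3122 without PDK4-IN replicate 2. No pairing by replicate number was assumed in the main fits. Deviations of same-numbered libraries correlated at 0.00 to 0.04 in Aged against Young and -0.04 to 0.04 in PDK4-IN against Aged. In PDK4-IN against Young they correlated at -0.02 to 0.18. In the same order, 3, 1 and 3 of 6 libraries correlated best with their own number. Such values cannot show whether the libraries are paired. With the replicate block 6081, 7605 and 5371 genes were called in these comparisons against 6511, 8077 and 4796 without it, and among the 10 genes it changed 1 call, that of Fosb in Aged against Young (adjusted p = 0.0608). The FOS share of the FOS and JUN sum in Aged minus Young stayed at 2.45 to 5.95 percentage points when each library was left out. At this depth Fosb, with 43 to 104 counts per library, is the least certain of the 10.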
